A study of Homo sapiens with 6 samples.

Results

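The desmosome components described here are 10 genes: DSP, DSG2, DSG3, DSC2, DSC3, JUP, PKP1, PKP2, PKP3 and PERP. They were found by symbol in the deposited gene table and joined by gene ID to the deposited counts, and all 10 were found among 60612 genes. Desmosomes are button-like junctions that couple the keratin filaments of neighbouring epithelial cells. Desmogleins (DSG) and desmocollins (DSC) are cadherins that bridge the gap between cells. Plakoglobin (JUP) and plakophilins (PKP) hold their tails in a plaque beneath the cell membrane, and desmoplakin (DSP) ties that plaque to keratin. PERP is a membrane protein that desmosomes of stratified epithelia need for stable assembly. In stratified squamous tissue DSG3 and DSC3 are typical of the basal layers, DSG1 and DSC1 of the upper layers, and DSG2 and DSC2 are also made in simple epithelia.

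RNA was sequenced from HSC-3 cells, a long-used human cancer line from oral squamous epithelium. In 3 libraries the cells overexpressed IRF9, the DNA-binding subunit of the interferon-activated factor ISGF3. The other 3, titled kongbai, have no label for overexpression, and the series' design names wild-type cells as the comparison. No label says which vector or promoter was used, whether the overexpressing cells were 1 clone, or whether replicates were separate cultures. The p-values therefore cover only library-to-library spread, which may be technical. Total counts were 69010768 to 85156099 in the IRF9-overexpressing libraries and 61645349 to 77257645 in the controls. IRF9 itself had 435, 423 and 120 CPM (read counts scaled to library size) with overexpression, against 27.6, 25.1 and 44.6 CPM in controls. The epithelial markers KRT5, KRT14, TP63, CDH1, EPCAM and SFN were all abundant. Of these 4 fell, 1 rose and 1 did not pass, beside 18.2% lower and 19.2% higher over all tested genes. The sum of the 6 markers was 9199 to 9761 CPM with overexpression and 15778 to 16345 CPM in controls. Most of that sum and of its difference was KRT5 (mean 3820 and 8545 CPM) and KRT14 (mean 3551 and 5128 CPM). Among markers of other cell types, PTPRC, CD3E, COL3A1, PECAM1 and CLDN5 had at most 0.132 CPM in any library. The 6 fibroblast markers summed to 47.4 to 51.7 CPM with overexpression and 75.7 to 80.5 CPM in controls (1 rose, 1 fell, 3 did not pass and 1 was not tested). The difference was mostly in LUM, with a mean of 11.3 CPM with overexpression and 38.9 CPM in controls, while PDGFRB rose (1.69 and 0.487 CPM) and COL1A1 did not pass (33.6 and 35.7 CPM). The leukocyte markers PTPRC, CD3E, LAPTM5 and CD68 summed to 74.7 to 82.0 CPM with overexpression and 79.6 to 83.0 CPM in controls, with 2 not tested. Most of that sum was CD68, which fell (mean 69.6 and 77.3 CPM), while LAPTM5 rose (7.53 and 3.82 CPM). The 4 endothelial markers summed to 1.53 to 2.96 CPM with overexpression and 0.824 to 1.63 CPM in controls. Of these CDH5 rose (mean 1.35 and 0.493 CPM), VWF did not pass (0.833 and 0.719 CPM) and 2 were not tested. The part of these markers in the desmosome values was not tested.

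In the cells overexpressing IRF9, 8 of the 10 desmosome genes were lower, 1 was higher and 1 did not pass the test. The genes that fell were both plaque linkers DSP and JUP, the plakophilins PKP1 and PKP3, the cadherins DSG3, DSC3 and DSC2, and PERP. PKP2 rose slightly and DSG2 did not pass. The test was edgeR's quasi-likelihood fit over all 19034 genes with enough counts, with an adjusted p (Benjamini-Hochberg) under 0.05. Over all tested genes 37.4% passed, 18.2% lower and 19.2% higher. The median log2 fold change of the 10 genes was -0.69, against 0.0046 over all tested genes. For 9 of the 10 the CPM values of the groups did not overlap, which was so for 48.6% of all tested genes (23.7% lower and 25% higher). Together the 10 genes took 0.327% to 0.347% of all counts in the overexpressing libraries and 0.531% to 0.546% in the controls. In bulk RNA, fewer cells with desmosomes and less of these RNAs per cell cannot be told apart.

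**Figure D1:**
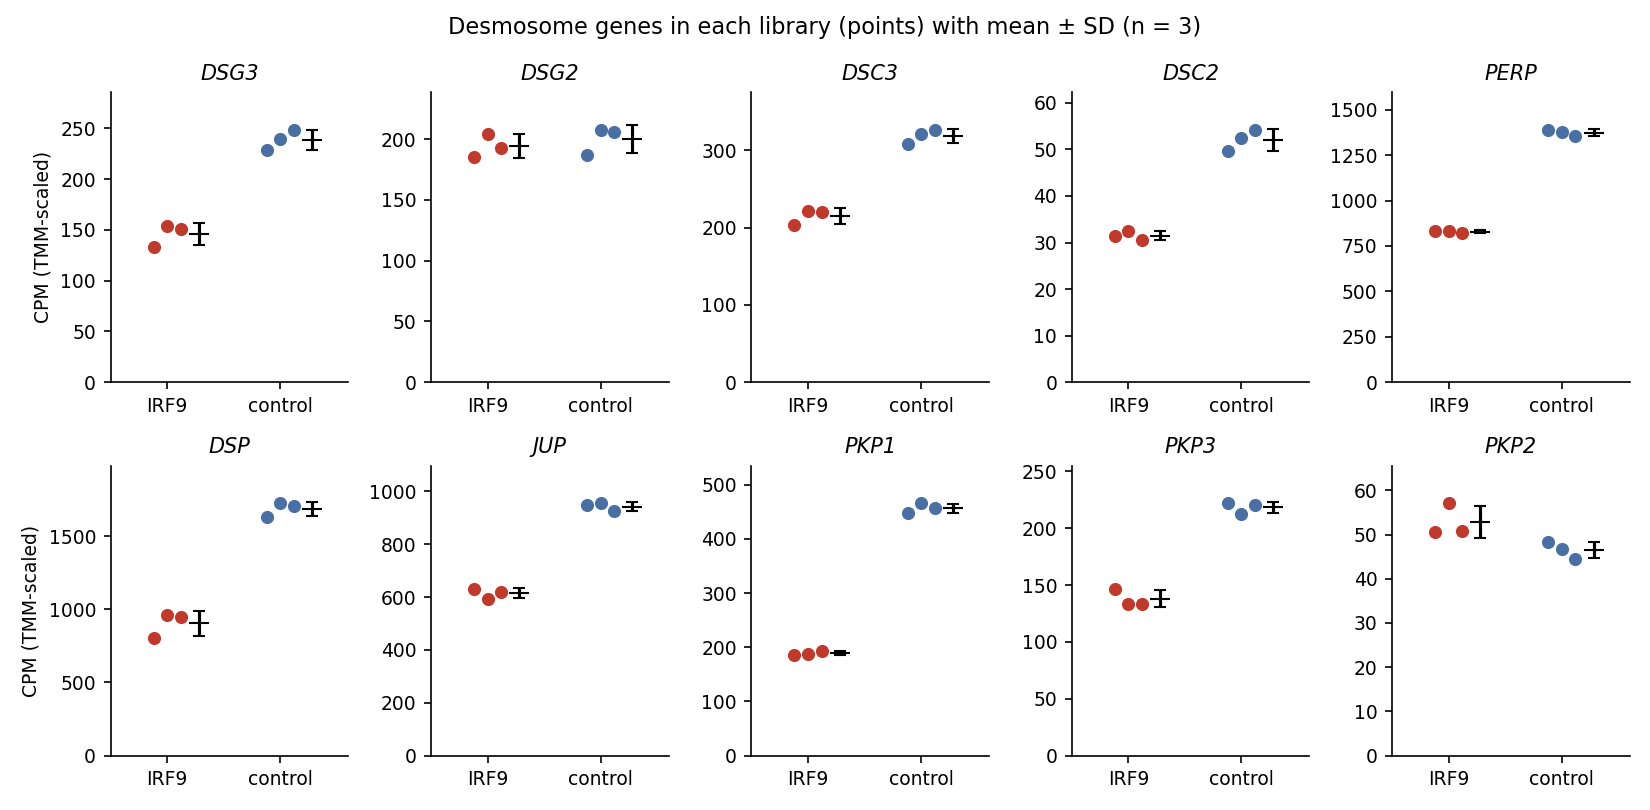
CPM scaled by TMM (a correction for library composition) on a linear axis from 0 for each of the 10 desmosome genes, one point per library, with the mean and SD of 3 libraries beside each group. Points of the IRF9-overexpressing libraries lie below all control points for 8 genes, overlap them for DSG2 and lie above them for PKP2.

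Sequence just upstream of 5 of these genes is shown so that genes that fell can be set beside DSG2, which did not pass: DSG3 and DSG2 are neighbours on chromosome 18, PKP1 and DSP had the lowest fold changes, and PERP had the highest level per length. The stretches come from RefSeq (GRCh38.p14), run 5′ to 3′ on the strand of the gene and end before the gene's span in the deposited table. RefSeq windows were found for 8 of the 10 genes, and PKP2 and PKP3 were not matched. Each stretch is at most the 250 bases before the RefSeq start. Capitals mark matches to any of 6 motifs searched on both strands.
DSG3 (chr18:31447491-31447740, plus strand): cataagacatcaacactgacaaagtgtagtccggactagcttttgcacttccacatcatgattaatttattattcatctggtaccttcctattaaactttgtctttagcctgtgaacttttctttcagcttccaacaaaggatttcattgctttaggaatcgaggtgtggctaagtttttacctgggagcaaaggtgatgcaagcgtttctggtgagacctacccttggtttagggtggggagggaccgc
DSG2 (chr18:31497927-31498176, plus strand): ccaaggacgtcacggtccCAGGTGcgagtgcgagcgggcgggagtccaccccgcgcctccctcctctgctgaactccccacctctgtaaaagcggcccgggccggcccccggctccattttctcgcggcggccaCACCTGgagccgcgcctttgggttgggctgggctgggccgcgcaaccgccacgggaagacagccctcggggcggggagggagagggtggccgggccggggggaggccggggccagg
PKP1 (chr1:201283256-201283451, plus strand): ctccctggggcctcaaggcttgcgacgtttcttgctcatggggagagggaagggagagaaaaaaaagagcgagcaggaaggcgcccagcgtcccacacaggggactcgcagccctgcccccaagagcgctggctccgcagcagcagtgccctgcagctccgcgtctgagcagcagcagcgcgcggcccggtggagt
DSP (chr6:7541421-7541616, plus strand): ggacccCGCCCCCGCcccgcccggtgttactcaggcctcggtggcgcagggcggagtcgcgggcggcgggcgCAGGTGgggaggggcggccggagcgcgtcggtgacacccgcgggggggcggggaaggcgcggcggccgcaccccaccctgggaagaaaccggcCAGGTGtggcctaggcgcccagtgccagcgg
PERP (chr6:138107420-138107669, minus strand): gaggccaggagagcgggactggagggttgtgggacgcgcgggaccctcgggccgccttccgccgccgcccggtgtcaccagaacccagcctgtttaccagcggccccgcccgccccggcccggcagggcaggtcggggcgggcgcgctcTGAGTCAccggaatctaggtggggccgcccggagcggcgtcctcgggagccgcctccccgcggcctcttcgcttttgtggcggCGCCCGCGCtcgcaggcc

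The motifs were the core of the interferon-stimulated response element (GAAA, any 2 bases, GAAA), the AP-1 site (TGANTCA), a grainyhead-like site (AACNGGTT), an EGR site (GCGNGGGCG), a TEAD site (GGAATG) and the E-box read by SNAI and ZEB repressors (CAGGTG). Over 35116 RefSeq windows of 250 bases, 3.02% held the interferon element, and none of the 10 windows of these genes did (JUP and DSC2 have 2 windows each). The AP-1 site was in 6.57% of all windows and among these genes only in that of PERP, beginning 101 bases before the start. The EGR site was in 8.41% of all windows, and here in those of DSP and PERP. The E-box was in 17.5% of all windows, and here in 1 window each of DSP, JUP, DSC2 and DSG2. It was so among genes that fell and in the one that did not pass. That window of JUP lies wholly within the deposited span of the gene. Neither the grainyhead-like site (1.49% of all windows) nor the TEAD site (11.9%) was in any of the 10. No match overlapped another. The DSG3 window held no match to these motifs and had 42.8% GC, whereas that of DSG2 had 2 E-boxes and 75.2% GC. This contrast did not extend to the other genes that fell. Their windows had 59.6% (DSC2) to 78% GC (DSP), and that of DSP also had 2 E-boxes. Those of PKP1 and DSC3 held no match. The median of all windows was 58% GC. These are matches of letters in a short window, not shown to be bound.

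Among the desmosomal cadherins, DSG3, DSC3 and DSC2 fell while DSG2 did not pass. DSG3 (ENSG00000134757, chromosome 18, 31447741 to 31478702, plus strand), the desmoglein of basal and oral keratinocytes and the autoantigen of pemphigus vulgaris, had 133, 154 and 151 CPM in the overexpressing libraries against 229, 239.5 and 249 CPM in the controls. Every overexpressing library was well below every control. Its log2 fold change was -0.71 (SE 0.054, edgeR adjusted p 8.52e-07), a level 38.9% lower. DSG2 (ENSG00000046604, chromosome 18, 31498177 to 31549008, plus strand), the widely expressed desmoglein, had 185, 205 and 193 CPM against 187, 208 and 206 CPM. The groups overlapped, and the log2 fold change of -0.044 had a 95% interval of -0.15 to 0.066 (edgeR adjusted p 0.538). That interval does not reach the fold change of DSG3. The sign of the DSG2 value was not stable: scaling by library size alone gave 0.024.

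DSC3 (ENSG00000134762, chromosome 18, 30989365 to 31042815, minus strand), the desmocollin of basal layers, had 203, 221 and 220.1 CPM in overexpressing cells against 308, 321 and 326 CPM in controls. It was lower in all 3 overexpressing libraries, with a log2 fold change of -0.57 (SE 0.042, edgeR adjusted p 6.55e-07). DSC2 (ENSG00000134755, chromosome 18, 31058840 to 31102522, minus strand), the desmocollin found in most desmosome-bearing tissues, was the scarcest of the 10 genes. It had 31.3, 32.5 and 30.5 CPM against 49.6, 52.4 and 54.2 CPM, a log2 fold change of -0.73 (SE 0.055, edgeR adjusted p 8.52e-07). Its groups stood far apart despite the low level. On log2(FPKM + 1), a scale that compresses low genes, the fold change of DSC2 was -0.49.

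All desmosomal cadherin genes lie in 1 cluster on chromosome 18, 30989365 to 31549008 (GRCh38), 559.6 kb long. In order along the chromosome they are DSC3, DSC2 and DSC1 on the minus strand, then DSG1, DSG4, DSG3 and DSG2 on the plus strand. The 2 ends of the cluster were expressed and its middle was near 0. DSG3 and DSG2 lie next to each other on the same strand, and had log2 fold changes of -0.71 and -0.044. DSC1, a desmocollin of cornifying layers, had 14, 19 and 7 counts with IRF9, against 0, 25 and 5 counts in controls (log2 fold change 0.22, SE 0.86, edgeR adjusted p 0.869). DSG1, the desmoglein of upper epidermal layers, had 0 counts in all 3 overexpressing libraries and 8, 18 and 0 in the controls, too few to be tested. DSG4, a hair desmoglein, had 0 counts in all 6 libraries. At these depths no difference in DSG1 or DSC1 was detectable.

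**Figure D2:**
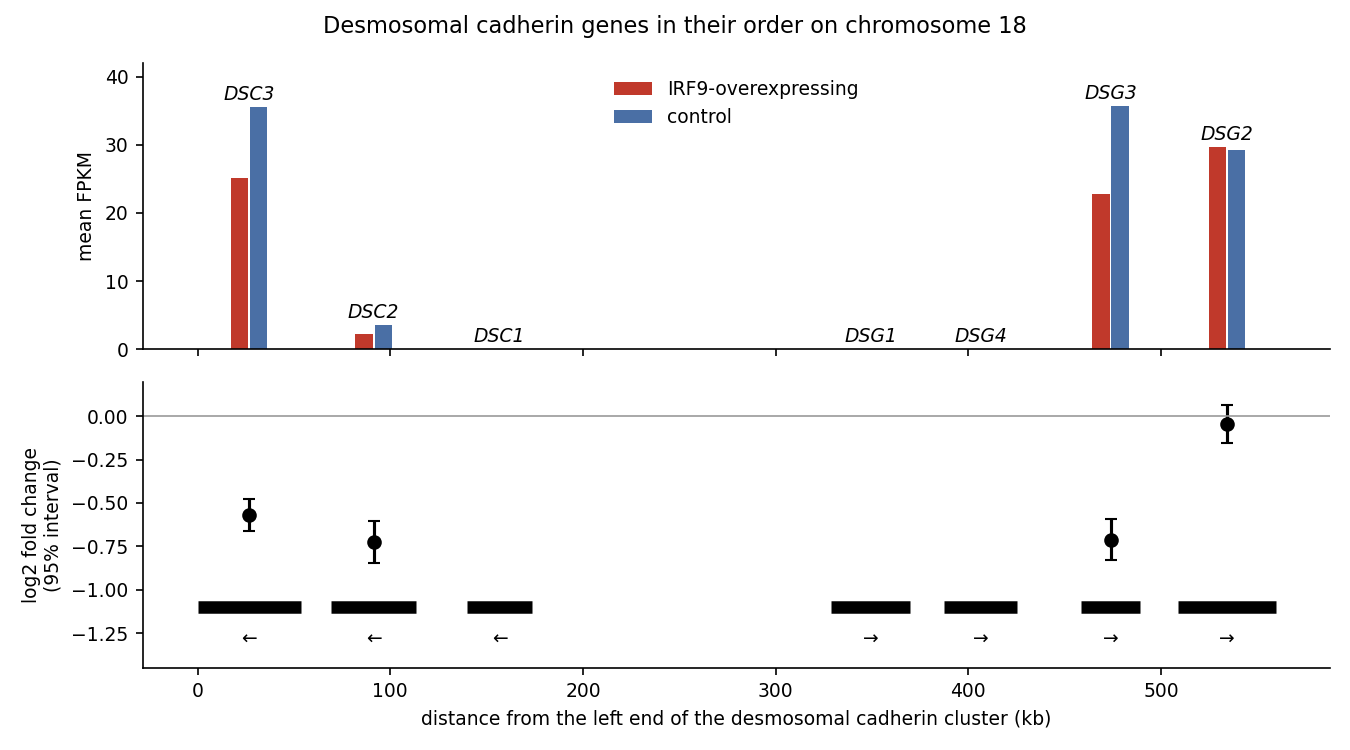
The upper panel plots mean FPKM (n = 3 per group) of the 7 desmosomal cadherin genes against distance from the left end of their cluster in kb, IRF9-overexpressing left of control in each pair of bars. The lower panel gives the log2 fold change with its 95% interval for the 4 expressed genes, with black bars for gene spans and arrows for strand. DSC3, DSC2 and DSG3 lie between -0.57 and -0.73 and DSG2 near 0.

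The mix of desmosomal cadherin RNAs therefore differed between the groups. FPKM, the deposited value per gene length, allows levels of different genes to be set side by side, as far as the authors' gene lengths hold. It was not scaled by TMM here. Log2 fold changes on log2(FPKM + 1) were higher than in the TMM fit by a median of 0.053, which bears on FPKM levels compared between groups. Shares and ratios within a library do not depend on the scaling of libraries. Summed FPKM of the 4 expressed cadherins was 74.8 to 83.5 in overexpressing cells and 98.4 to 108 in controls. DSG2 made up 37.2 ± 0.767% of that sum in overexpressing cells and 28.1 ± 0.574% in controls (SD, n = 3 each). DSG3 made up 28.5 ± 0.713% against 34.3 ± 0.432%, DSC3 31.5 ± 0.616% against 34.2 ± 0.354%, and DSC2 2.78 ± 0.144% against 3.39 ± 0.0277%. The ratio of DSG3 to DSG2 was 0.766 in overexpressing cells and 1.22 in controls (geometric means), so the more abundant desmoglein RNA was DSG2 with IRF9 and DSG3 without it. The log2 ratios of the groups did not overlap, and a two-sided exact permutation test gave p = 0.1, the smallest p that 3 libraries against 3 allow. In all, 6 ratios were compared in this way and each gave that p, also after Benjamini-Hochberg adjustment. The ratio of DSC3 to DSC2 was 11.3 against 10.1, a smaller difference of 0.17 on the log2 scale (exact permutation p = 0.1).

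**Figure D3:**
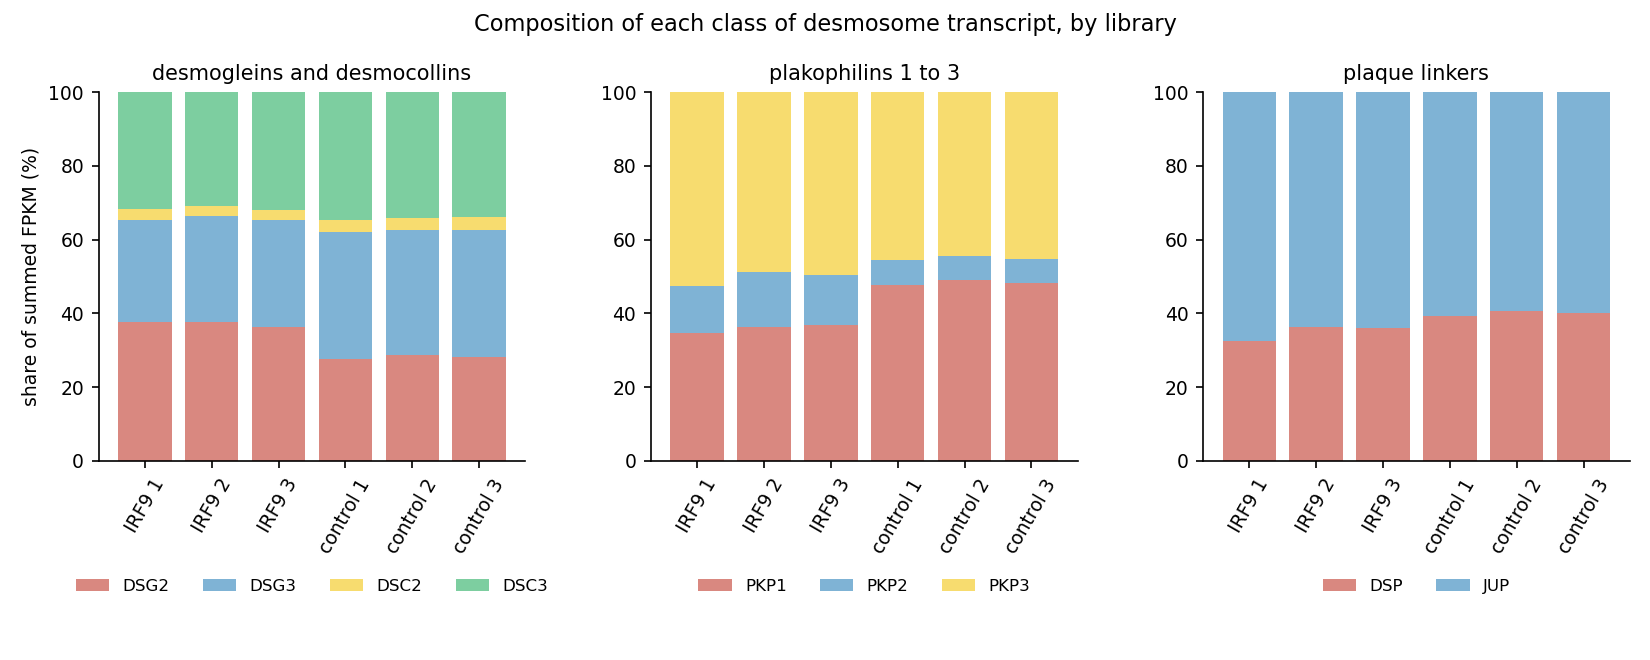
Stacked bars give the share of summed FPKM, in percent, of each gene within 3 classes (desmosomal cadherins, plakophilins 1 to 3, and the linkers DSP and JUP), 1 bar per library, overexpressing libraries left. With IRF9, DSG2 and PKP2 take larger shares and DSG3 and PKP1 smaller ones, with no overlap between the groups.

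In the plaque, both DSP and JUP fell. DSP (ENSG00000096696, chromosome 6, 7541617 to 7586714, plus strand), the plakin that binds keratin filaments, had 805, 960.0 and 947 CPM in overexpressing libraries against 1628, 1724 and 1705 CPM in controls. Every overexpressing library was far below every control, and replicate 1 was the lowest. The log2 fold change was -0.90 (SE 0.056, edgeR adjusted p 1.5e-07), a level 46.4% lower, and -0.82 without that replicate. In overexpressing replicate 1, long transcripts were low relative to the other 2: the median difference was 0.11 (log2) for 1982 protein-coding genes under 2 kb and -0.15 for 1085 genes over 8 kb, where DSP (9796 bases) and DSC2 (12325 bases) belong. The same difference was -0.24 for DSP and -0.0096 for DSC2, and it ran from -0.19 (DSG3) to 0.13 (PKP3) over the 8 shorter desmosome genes. The median log2 fold change between groups ran likewise from 0.060 for the shortest genes to -0.11 for the longest, and from 0.024 to -0.066 without that library. The part of transcript length in the DSP value was not tested.

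JUP (ENSG00000173801, chromosome 17, 41754604 to 41786931, minus strand), plakoglobin, which is shared by desmosomes and adherens junctions, had 630.4, 594 and 619 CPM against 947, 955 and 924 CPM. The spread within each group was small and the groups did not overlap (log2 fold change -0.62, SE 0.033, edgeR adjusted p 3.66e-08). Its longest annotated transcript has 3497 bases. Per length JUP exceeded DSP in every library, 1.86-fold in overexpressing cells and 1.5-fold in controls (difference 0.31 in log2, exact permutation p = 0.1). The cadherin sum relative to DSP was 0.881 in overexpressing cells and 0.638 in controls, a difference of 0.47 in log2 (exact permutation p = 0.1). Without overexpressing replicate 1 the difference was 0.24 for JUP over DSP and 0.45 for the cadherin sum over DSP. The part of transcript length in these ratios was not tested.

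The plakophilins diverged. PKP1 (ENSG00000081277, chromosome 1, 201283452 to 201332993, plus strand), the plakophilin of stratified epithelia that recruits DSP and clusters cadherins, had 186, 188 and 193 CPM in overexpressing libraries against 449, 466 and 456 CPM in controls. The libraries within each group were nearly alike, and the level was 58.6% lower with IRF9. With a log2 fold change of -1.27 (SE 0.035, edgeR adjusted p 9.69e-11) it had the lowest fold change of the 10 genes, and the only one past 2-fold. Of all tested genes, 5.73% passed with a change of 2-fold or more. PKP3 (ENSG00000184363, chromosome 11, 392614 to 404908, plus strand), present in most epithelial desmosomes, had 146, 134 and 134 CPM against 222, 213 and 220.5 CPM. The groups stood apart, with a log2 fold change of -0.66 (SE 0.044, edgeR adjusted p 2.67e-07).

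PKP2 (ENSG00000057294, chromosome 12, 32790755 to 32896777, minus strand), the plakophilin of simple epithelia and heart, had 50.5, 57.1 and 50.8 CPM in overexpressing cells against 48.3, 46.6 and 44.6 CPM in controls. The groups did not overlap, but the nearest libraries were close. Its log2 fold change was 0.18 (SE 0.060, edgeR adjusted p 0.0333). That call was lost without overexpressing replicate 2 (0.12, adjusted p 0.126), without control replicate 2 (0.18, adjusted p 0.0896), without control replicate 3 (0.15, adjusted p 0.125) and with no filter on low counts (0.19, adjusted p 0.056). Per length the ratio of PKP1 to PKP3 was 0.714 in overexpressing cells and 1.07 in controls, and that of PKP2 to PKP3 was 0.274 and 0.147 (exact permutation p = 0.1 for each). PKP1 was thus the most abundant of the 3 RNAs in every control and PKP3 in every overexpressing library. Their summed FPKM was 87.5 to 89.6 with IRF9 and 151.5 to 154.5 in controls. The log2 difference between groups was -0.58 for PKP1 over PKP3 and 0.90 for PKP2 over PKP3. Without overexpressing replicate 1 these differences were -0.52 and 0.97. The part of transcript length in the plakophilin ratios was not tested. PKP4 (chromosome 2), a relative found at several junction types, had 98.4, 101 and 101 CPM against 88.7, 89.8 and 94.4 CPM, and rose by 0.14 in log2 (SE 0.042, edgeR adjusted p 0.02).

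PERP (ENSG00000112378, chromosome 6, 138088505 to 138107419, minus strand), a target of p53 and p63, had 834, 831 and 820.4 CPM in overexpressing libraries against 1389, 1378 and 1356 CPM in controls. Within each group it varied little, and the level with IRF9 was 39.7% lower (log2 fold change -0.73, SE 0.028, edgeR adjusted p 2.2e-09). TP63, which encodes p63, had 841, 913.5 and 915 CPM against 909, 955 and 919 CPM, groups that overlapped (log2 fold change -0.060, edgeR adjusted p 0.25).

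**Figure D4:**
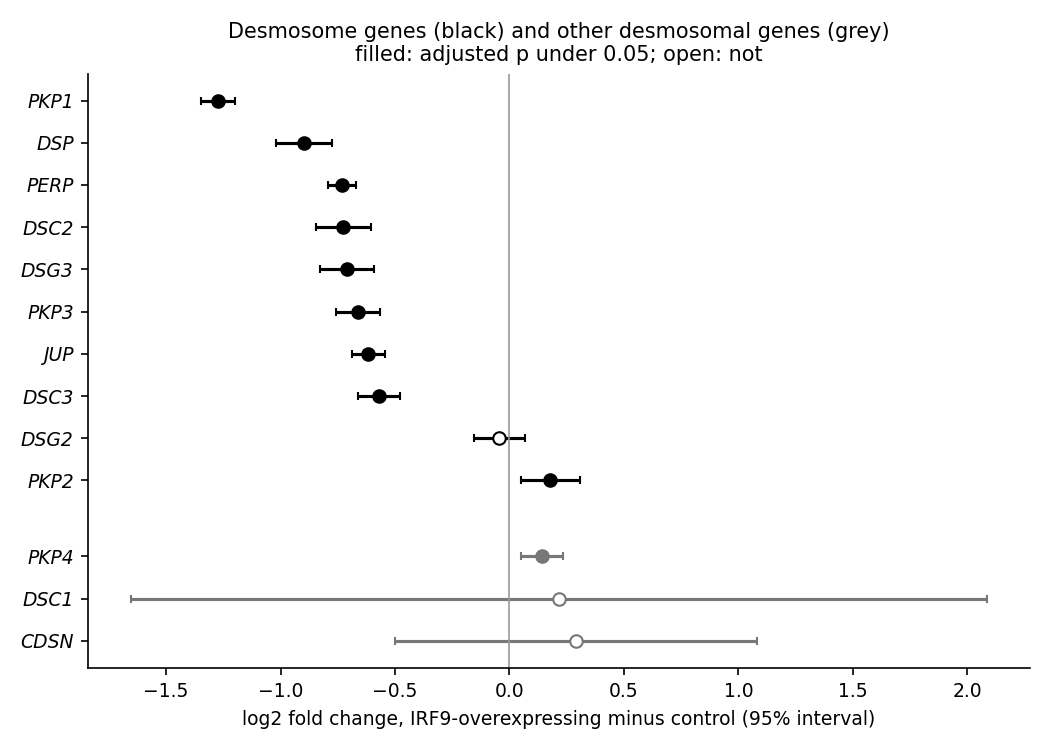
Log2 fold change (IRF9-overexpressing minus control) with its 95% interval for the 10 desmosome genes in black and the 3 tested genes of the list of other desmosomal genes in grey. Filled points passed an adjusted p of 0.05. PKP1 lies at -1.27, 7 genes lie between -0.57 and -0.90, DSG2 spans 0, and PKP2 and PKP4 lie slightly above 0.

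By level per length, PERP (mean 172 FPKM in overexpressing cells, 273 in controls), JUP (168 and 244) and DSP (90.6 and 163) were the 3 most abundant in both groups. In controls PKP1 (73.7), PKP3 (68.9), DSG3 (35.7), DSC3 (35.6), DSG2 (29.3), PKP2 (10.1) and DSC2 (3.52) followed. The values of DSG3 and DSC3 overlapped there, while all other neighbours in the order were separate. In overexpressing cells the order after DSP was PKP3 (44.5), PKP1 (31.7), DSG2 (29.6), DSC3 (25.1), DSG3 (22.7), PKP2 (12.2) and DSC2 (2.22). Overlapping neighbours there were PERP with JUP, PKP1 with DSG2, and DSC3 with DSG3. Among all tested genes PERP, JUP and DSP stood at percentiles 99, 98.9 and 98.4 of control FPKM, and DSC2 at 50.4.

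Other genes of the cell surface and cytoskeleton were read as lists of functionally related genes. Of the 5 other desmosomal genes, 1 rose (PKP4), 2 did not pass (DSC1 and CDSN) and 2 were not tested (DSG1 and DSG4). CDSN, corneodesmosin of cornified layers, had 0.679, 0.648 and 0.814 CPM against 0.625, 0.756 and 0.331 CPM (edgeR adjusted p 0.574). In the list of plakins and keratins that meet desmosomes, 10 of 13 fell and 2 rose, beside 18.2% lower and 19.2% higher over all tested genes, with a median log2 fold change of -0.45. KRT5, the basal type II keratin, fell by 1.16 and KRT6A, a keratin of activated epithelium, by 0.95, whereas KRT18, a keratin of simple epithelia, rose by 0.72 on the log2 scale (edgeR adjusted p 6.35e-11, 1.69e-10 and 4.24e-08).

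Adherens junction genes held 4 lower and 1 higher of 10, with a median of -0.091. NECTIN1, an adhesion molecule, fell by 0.58, CDH1, E-cadherin, by 0.35 and CTNND1, p120 catenin, by 0.25 on the log2 scale (edgeR adjusted p 1.12e-06, 1.87e-05 and 0.000157). Hemidesmosome genes, which anchor cells to the basement membrane, held 4 lower and 1 higher of 7, with a median of -0.31. The integrin chain ITGA6 fell by 0.45 and the collagen COL17A1 by 0.31, while LAMB3, a chain of laminin-332, rose by 0.40 (edgeR adjusted p 5.41e-07, 4.99e-06 and 3.39e-07). These counts are set against 18.2% lower and 19.2% higher among all tested genes.

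Genes of transport, lipid modification and shedding of desmosomal proteins held 5 lower and 3 higher of 12, with a median of -0.023, where 18.2% of all tested genes were lower and 19.2% higher. FLOT2 fell by 0.40 and its partner flotillin FLOT1 rose by 0.45, and EGFR, a receptor whose activity loosens desmosomes, fell by 0.41 on the log2 scale (edgeR adjusted p 4.86e-05, 8.42e-05 and 0.000122). Of 11 transcription factors that act on junction genes, 5 fell and 1 rose, beside the same shares of 18.2% and 19.2% over all tested genes, with a median of -0.18. GRHL1, a grainyhead-like factor known in mouse skin for control of Dsg1, had 35.9, 39.5 and 37.4 CPM against 63.7, 65 and 63.3 CPM, and fell by 0.77. SNAI2, a repressor of epithelial junction genes, fell by 0.59 and KLF5, a factor of basal keratinocytes, by 0.35 (edgeR adjusted p 2.72e-07, 1.84e-06 and 5.04e-06 for the 3 factors).

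**Figure D5:**
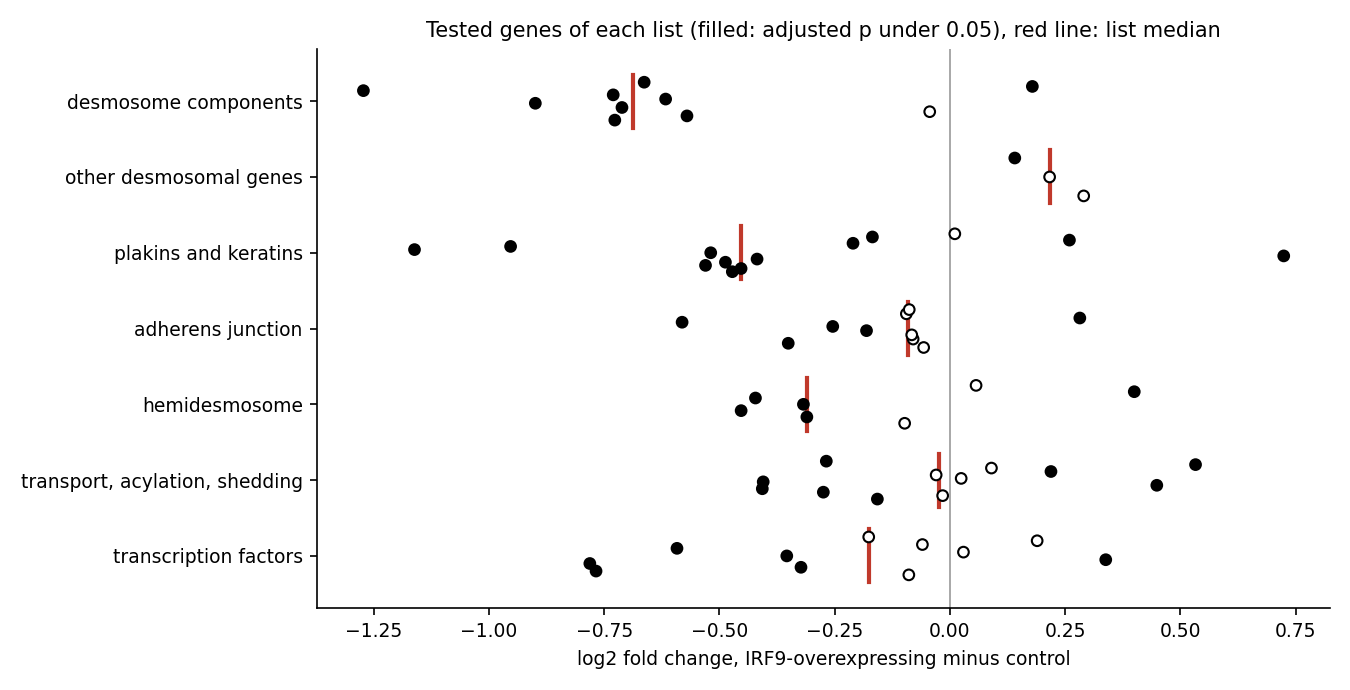
Log2 fold change (IRF9-overexpressing minus control) of every tested gene of the desmosome components and of 6 other lists, 1 point per gene, filled where the adjusted p was under 0.05, with a red line at each list's median. The median is -0.69 for desmosome components, -0.45 for plakins and keratins, -0.31 for hemidesmosome genes and between -0.18 and 0.22 for the others. The value 0.22 is the median of 3 tested other desmosomal genes and is that of DSC1, which had at most 25 counts and did not pass.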

How the data were processed

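Per the labels' protocols, Trizol RNA was made into libraries with a TruSeq kit. One table deposited by the authors holds raw counts for each gene. Another deposited table holds length-normalised values with no unit in its header, which were read as FPKM from their size. Tools listed in the submitters' processing notes, without roles, are HISAT2, StringTie, edgeR, Trimmomatic, FastQC and CASAVA 1.8, and the build is GRCh38. No source used here states the gene annotation or whether counting used strand.

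Counts were tested with edgeR 4.0.16 (R 4.3.3). Genes were kept by filterByExpr (minimum count 10, minimum total 15), scaled by TMM and fitted with group as the term over 6 libraries. Adjusted p-values cover all 19034 tested genes, and SEs were derived from the test statistic. The script was checked on simulated counts. CPM values use TMM-scaled library sizes. The lowest count of any of the 10 genes was 2308, a counting error of 2.08%, and no library was a copy of another. Counting error is only part of the spread. Between libraries of the same group, differences over the tested genes averaged 8.65 to 21.9 times the counting variance. Ratios were compared by exact permutation (scipy 1.17.1). Transcript lengths are those of the longest GENCODE v29 transcript.

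Alternatives covered DESeq2 1.42.0, limma 3.58.1 (voom, and trend on FPKM), other scalings, filters and thresholds, the replicate number as a block, sums with overlapping genes and leaving out each library. The members, lists and tests were chosen with earlier results of these data known. All 10 genes are named, with every other desmosomal gene and, from each further list, the 3 changed genes with the smallest p. Other marker genes are named for the check of the cell type. One marker gene is not reported here.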

Additional observations from a re-analysis of the deposited data

How the results depend on the processing

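Of 190 values for the fold changes of the 10 genes under 19 alternatives, the direction and call held in 174. The call was lost in 13 and the sign turned in 3. Settings that changed only the threshold reused the main fold changes, so there the direction could not change. The differences of the 6 ratios kept their sign in all 42 values. Because the groups overlapped in none of these ratios, leaving out a library could not turn a sign. Only the use of counts in place of FPKM could have done so. The 3 reversals were all of DSG2, which passed in none: 0.024 with library size scaling, and 0.018 on log2(FPKM + 1) and log2(FPKM + 0.1). A 2-fold minimum left 1090 genes in all and 1 desmosome gene, PKP1, which was lower, with 0 higher, fewer by construction. An adjusted p under 0.01 and the absence of a filter on low counts each left 0 desmosome genes higher, since PKP2 was lost. Leaving out 1 library gave 5784 to 6912 changed genes in all, 8 to 9 desmosome genes changed, 0 to 1 higher and 8 lower.

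Library size scaling gave 4742 higher and 2614 lower genes overall (64.5% higher, against 51.2% with TMM), with 8 desmosome genes lower and 1 higher as with TMM. The older quasi-likelihood estimator of edgeR, an alternative chosen after seeing the data, gave 6815 changed genes in all and 9 desmosome genes. With the replicate number as a block, 7458 genes and 9 desmosome genes changed. No label says whether the numbers pair the libraries. Deviations of same-numbered libraries from their group means correlated at -0.0828, -0.0147 and -0.0607 over 14160 genes. No overexpressing library matched its own number best. With 3 libraries per group these values cannot settle whether the libraries were paired. Genes overlapping DSG2, DSC2 and PKP2 held at most 0.456% of the summed counts of any of these loci.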

Other observations

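Among the epithelial markers, EPCAM, an adhesion molecule of simple and carcinoma epithelia, rose in the IRF9-overexpressing cells, with 175, 169 and 159 CPM against 116, 113 and 115 CPM in controls (log2 fold change 0.54, SE 0.044, edgeR adjusted p 1.4e-06). The simple keratin KRT8, partner of KRT18, had 214, 208 and 198 CPM against 175, 169 and 175 CPM and rose by 0.26 (SE 0.040, edgeR adjusted p 0.000292). The spans of KRT8 and KRT18 overlap on opposite strands, and the part of KRT18 reads in the KRT8 value was not tested. KRT19, a keratin of simple and basal epithelia, had 10.2, 7.22 and 7.87 CPM against 12.3, 12.1 and 12.1 CPM and fell by 0.52 (SE 0.12, edgeR adjusted p 0.00446). The plakin PPL, periplakin, overlapped between groups with a log2 fold change of 0.011 (edgeR adjusted p 0.851), while its relative EVPL, envoplakin, fell by 0.45 (edgeR adjusted p 1.6e-05). These genes were picked after their values were seen.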
